A study of Homo sapiens with 9 samples.

Results

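Experiments 1 and 2 of the 3 experiments of this study were compared with each other: 6 of the 9 libraries, each experiment holding 1 library per guide, and libraries of the same guide set as pairs. The members were taken by the number in the sample titles, and all genes were included: 38179 entries in the count table, of which 21071 had enough counts to be tested. All 6 libraries came from U-2 OS, a human osteosarcoma line, grown in McCoy's 5A medium with serum. The cells received Cas9 and then 1 of 3 kinds of guide RNA: NTC, a control with no target in the human genome, crXCR1, which directs Cas9 to a chemokine receptor gene that these cells barely express, or crSUGP1, which directs it to SUGP1, a splicing factor gene. PolyA RNA came from 1 flask of cells per library. The study calls the experiments independent, and the labels do not say whether passage, serum, day of extraction or sequencing run was shared, so these cannot be told apart from the experiment. No label gives a time for the flasks, since the 72 h that the labels state belongs to the screen in plates.

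Each guide is in both experiments, so the comparison asks how far the same line drifted from one run to the next. NF-kB, a family of transcription factors held in the cytoplasm until a signal frees it, drives chemokine and cytokine genes, and many of these are made by osteosarcoma and stromal cells without added stimulus. Serum amyloid A, LCN2 and C3 are acute-phase products that NF-kB and C/EBP factors raise together. Replication-dependent histone mRNAs are made in S phase and end in a stem-loop in place of a polyA tail, so that a polyA library holds few of their reads.

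The 3 libraries of experiment 1 held 86848671 to 97474318 counts and those of experiment 2 held 71470063 to 82074900. The ranges did not overlap (two-sided exact permutation, p = 0.1, and no lower p is possible with 3 against 3), so depth and experiment cannot be told apart. Mitochondrial transcripts took 4.56% ± 0.427 of the counts in experiment 1 and 4.29% ± 0.287 in experiment 2 (SD, n = 3 each; exact two-sided permutation test, p = 0.5). Since SUGP1 was the target of 1 guide, its level checked the labels: SUGP1 stood in experiments 1 and 2 at 30.2 and 30.8 CPM with NTC, 31.6 and 29.0 CPM with crXCR1, and 7.87 and 7.68 CPM with crSUGP1. XCR1 had 13 counts in each crXCR1 library and 0 in the other 4. CPM is the count of a gene relative to its library's total, scaled by TMM. Of the 22 listed markers of other cell types, 13 passed the filter and 0 of them passed an adjusted p of 0.05 in the edgeR test described next, with 1 higher and 1 lower at an unadjusted p under 0.05, where 1206 (5.72%) of all genes tested were higher and 1607 (7.63%) lower. Among them PTPRC, the pan-leukocyte marker CD45, was at 0.463, 0.489 and 0.484 CPM in experiment 1 and 0.423, 0.516 and 0.372 CPM in experiment 2. CD68, a leukocyte marker, and RBFOX3, a neuron marker, had the highest levels on the list. CD68 had means of 27.4 and 28.2 CPM in experiments 1 and 2, and AC016876.2 overlaps it on the same strand. RBFOX3 had means of 19.7 and 17.4 CPM and was lower in each pair (edgeR, adjusted p = 0.137).

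The pairing was fitted by edgeR's quasi-likelihood test with guide and experiment as terms, which leaves 2 residual degrees of freedom, and p-values were adjusted over all 21071 genes by Benjamini-Hochberg. They set the fitted difference against its spread over the 3 guide pairs. edgeR draws that spread toward the spread of other genes, with a weight of 14.1 prior degrees of freedom. A gene can therefore pass although its pairs differ in size. The libraries of 1 experiment carry different guides and are not replicates of each other. A gene was called where the adjusted p was at most 0.05 and the absolute log2 fold change at least 0.5. Of all genes tested, 19 (0.0902%) were called. Of these, 7 (0.0332%) were higher in experiment 2 and 12 (0.057%) lower. At the adjusted p with no minimum on the fold change, 27 genes (0.128%) were higher and 87 (0.413%) lower. Some of the lower ones overlap, such as RTEL1-TNFRSF6B with RTEL1 and TNFRSF6B, and may hold the same reads, so they are not all separate. Without regard to a test, all libraries of experiment 2 lay below all of experiment 1 for 1174 genes (5.57%) and above them for 1097 (5.21%). The calls depended on the pairing by guide: with experiment as the sole term, edgeR called 0 genes and 1020 had an unadjusted p under 0.05, against 2813 in the paired fit, and DESeq2 with both terms called 8.

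By the median fold change and the number of genes called, the difference between the experiments was larger than that between crXCR1 and NTC. By the same measures it was smaller than those between crSUGP1 and either control. Among the 16718 genes at a mean of at least 1 CPM, the median absolute log2 fold change from experiment 1 to 2 was 0.0552. It was 0.0483 between crXCR1 and NTC in the same libraries, with 2 genes called (0.00949%), and 0.0941 between crSUGP1 and NTC, with 539 called (2.56%). Between crSUGP1 and crXCR1, 626 genes were called (2.97%). By other measures the experiments did not differ more than crXCR1 and NTC. The 95th percentile of the absolute log2 fold change was 0.202 between the experiments and 0.203 between crXCR1 and NTC, and the largest was 0.86 and 1.95. For experiment 3 against 1, in a fit of those 6 libraries, the median was 0.148 with 2390 genes called (11.3%), and for experiment 3 against 2 it was 0.139 with 1981 called (9.4%). These comparisons share libraries, so they are given side by side only.

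The guide pairs differed in the size of the drift, which 1 library against 1 does not allow to be tested. The log2 ratio of experiment 2 over 1 had an SD over these genes of 0.174 in the NTC pair, 0.127 in the crXCR1 pair and 0.12 in the crSUGP1 pair. In the NTC pair 209 genes were lower and 37 higher by at least 0.5, while the crXCR1 pair had 21 lower and 76 higher and the crSUGP1 pair 39 lower and 34 higher. Pearson's r across the 16718 genes, which are not independent replicates, was 0.169 between the NTC and crXCR1 pairs, 0.305 between the NTC and crSUGP1 pairs and 0.232 between the crXCR1 and crSUGP1 pairs. The plot of ratios by guide shows the called genes at the rim of the cloud.

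**Figure D1:**
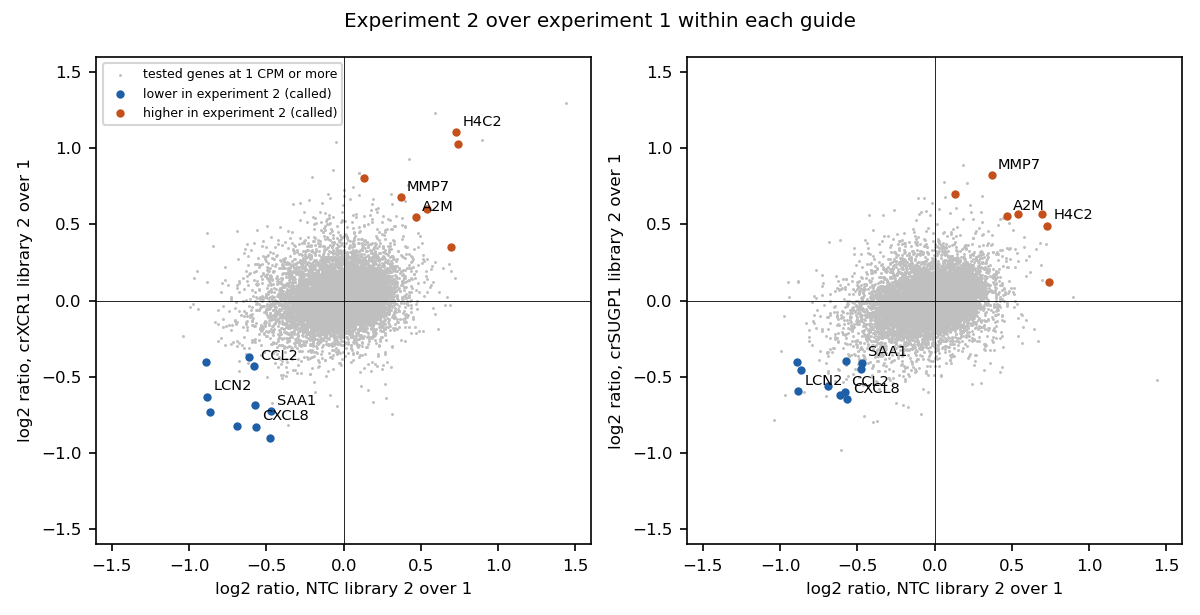
Each point is 1 gene at a mean of 1 CPM or more, with the log2 ratio of experiment 2 over experiment 1 in the NTC pair on the x axis and in the crXCR1 pair (left) or crSUGP1 pair (right) on the y axis. Called genes are coloured; CXCL8 lies at -0.56 in the NTC pair, -0.83 in the crXCR1 pair and -0.65 in the crSUGP1 pair.

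Chemokine genes of inflammation were among the called lower genes, with CXCL8 foremost. CXCL8, the neutrophil chemokine interleukin-8, was at 76.8, 56.2 and 59.7 CPM in the NTC, crXCR1 and crSUGP1 libraries of experiment 1 and at 52.1, 31.6 and 38.1 CPM in those of experiment 2. All 3 libraries of experiment 2 lay below those of experiment 1, and CXCL8 had the smallest p of the tested genes, with a log2 fold change of -0.68 ± 0.049 (SE; edgeR, adjusted p = 4.14e-06). CXCL5, a related chemokine, was at 2.67, 1.91 and 2.43 CPM and then at 1.75, 1.47 and 1.57 CPM, again without overlap (log2 fold change -0.55 ± 0.10, edgeR adjusted p = 0.0242). CCL2, which attracts monocytes, was at 3.79, 3.34 and 3.67 CPM and then at 2.54, 2.47 and 2.42 CPM (log2 fold change -0.54 ± 0.087, edgeR adjusted p = 0.00996).

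CSF2, the growth factor GM-CSF, was at 9.46, 8.01 and 13.7 CPM in experiment 1 and at 6.37, 4.94 and 10.4 CPM in experiment 2. The crSUGP1 library was the highest in each experiment, so the groups overlap while each pair fell (log2 fold change -0.54 ± 0.067, edgeR adjusted p = 0.00112). MIR3142HG, the host transcript of the microRNA miR-146a, whose own gene is an NF-kB target, was at 5.57, 4.33 and 7.42 CPM and then at 3.06, 2.60 and 5.40 CPM (log2 fold change -0.66 ± 0.086, edgeR adjusted p = 0.00157).

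Promoters of chemokine genes and of MIR3142HG are shown because several of the lower genes hold the same short sequence there. In the RefSeq table of GRCh38.p14, with 250 bases before and 50 after each start, the letters GGANTTTCC, a kB site (N is any base), were searched on both strands. They are in 1.64% of 27305 promoters and in 1.62% of the 13063 promoters of tested genes. Of the called lower genes, 5 have a promoter in the table and 3 hold the letters (CXCL8, CXCL5 and MIR3142HG), as do 8 of 56 lower genes at the adjusted p alone and 0 of 18 higher genes. The letters are not particular to genes that fell. Of the NF-kB targets listed below, 15 have a promoter in the table and 7 hold them. Among these 7, NFKBIA, NFKB1, IL6 and ICAM1 did not pass the adjusted p. Capitals mark the match, 20 bases are given on each side, and each is read on the gene's strand.

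CXCL8, chr4:73740458-73740506, plus strand: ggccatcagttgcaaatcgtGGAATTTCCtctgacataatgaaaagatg
CXCL5, chr4:73998739-73998787, minus strand: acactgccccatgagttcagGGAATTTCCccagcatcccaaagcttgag
CXCL3, chr4:74038739-74038787, minus strand: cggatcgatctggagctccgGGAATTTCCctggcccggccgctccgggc
MIR3142HG, chr5:160468112-160468160, plus strand: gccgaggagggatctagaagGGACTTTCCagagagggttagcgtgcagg

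The core of those stretches is alike because the search required it, and a match describes letters and not binding. Genes of acute-phase products, for which no list was set, were also among the called lower genes. LCN2, the siderophore-binding lipocalin, was at 6.84, 5.85 and 7.48 CPM in experiment 1 and at 3.71, 3.75 and 4.95 CPM in experiment 2, with no overlap (log2 fold change -0.70 ± 0.077, edgeR adjusted p = 0.000596). SAA1, a serum amyloid A gene, was at 11.7, 11.8 and 25.2 CPM and then at 8.48, 7.10 and 19.0 CPM (log2 fold change -0.52 ± 0.063, edgeR adjusted p = 0.00112). SAA2 was at 3.85, 3.52 and 7.81 CPM and then at 2.38, 1.97 and 5.29 CPM (log2 fold change -0.67 ± 0.083, edgeR adjusted p = 0.00112). In SAA1 and SAA2 alike the crSUGP1 libraries were far above the others in both experiments, and each pair fell. SAA2 and the read-through SAA2-SAA4 share exons, and SAA1 is a close copy, so how the authors' counting split their reads is uncertain.

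C3, the central complement protein, passed the adjusted p but not the minimum fold, at 72.1, 63.4 and 68.1 CPM and then at 44.9, 51.3 and 49.4 CPM (log2 fold change -0.48 ± 0.056, edgeR adjusted p = 0.00101). AC008760.2, a called noncoding gene inside the span of C3 on the same strand, was at 1.35, 0.851 and 0.874 CPM and then at 0.621, 0.558 and 0.583 CPM, and its reads may not be told apart from those of C3. The other called lower genes were CTSS, the protease cathepsin S (1.24 to 0.727 CPM as means of 3 libraries), KRT6B, a keratin (4.42 to 2.97 CPM), and SAA2-SAA4 (1.87 to 1.26 CPM). Fewer cells that express a gene and less RNA of it per cell cannot be told apart in such libraries.

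**Figure D2:**
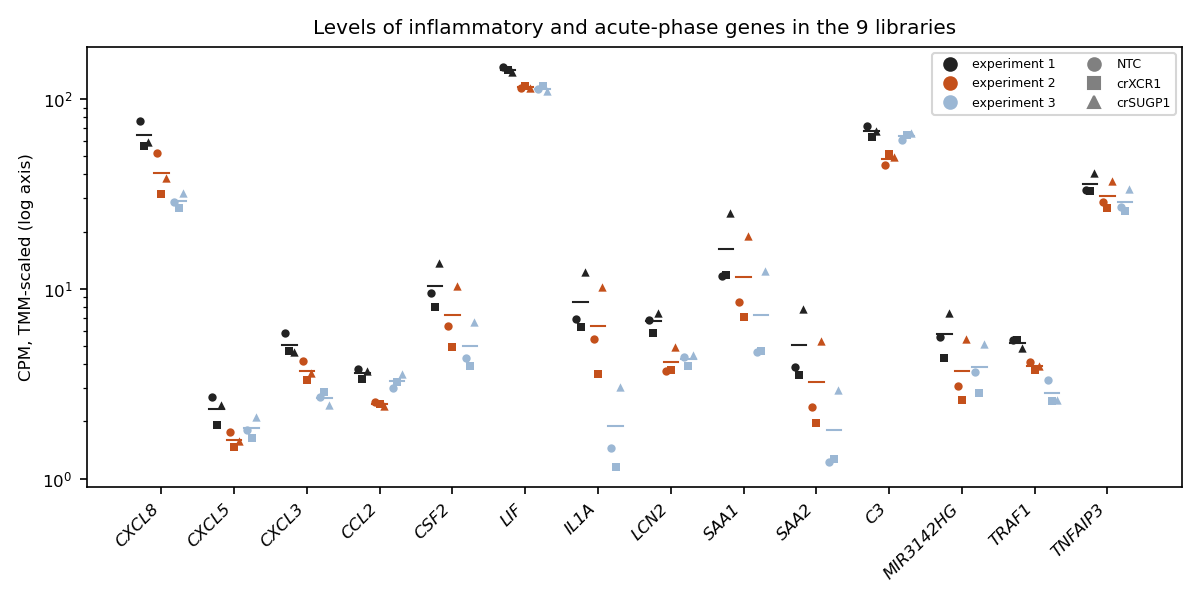
CPM on a log axis for 14 inflammatory and acute-phase genes in the 9 libraries, with colour for the experiment, shape for the guide and a line at the mean of 3 libraries. Mean CXCL8 falls from 64.2 CPM in experiment 1 to 40.6 in experiment 2 and is 29.1 in experiment 3, while mean C3 goes from 67.9 to 48.5 and is 63.8 in experiment 3.

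The list of 20 NF-kB inflammatory targets had 18 tested members. Of these, 17 were fitted below 0 where 49.6% of all genes were, and the median log2 fold change was -0.196 against 0.001 over all genes. The median was -0.313 in the NTC pair, -0.223 in the crXCR1 pair and -0.164 in the crSUGP1 pair, so it lay below 0 in each. At the adjusted p alone 7 members fell (CXCL8, CCL2, CXCL3, IL1A, LIF, TRAF1 and TNFAIP3), where 0.413% of all genes did, and 0 rose, and 2 of them, CXCL8 and CCL2, also passed the fold. The list was chosen with earlier results of these data known. LIF, an interleukin-6 family cytokine, was at 147, 141 and 139 CPM and then at 115, 117 and 115 CPM (log2 fold change -0.31 ± 0.040, edgeR adjusted p = 0.00157), and TNFAIP3, the NF-kB feedback inhibitor A20, was at 33.3, 32.6 and 40.9 CPM and then at 28.7, 26.6 and 37.0 CPM (log2 fold change -0.22 ± 0.045, edgeR adjusted p = 0.0412).

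CXCL3 was at 5.83, 4.68 and 4.66 CPM in experiment 1 and at 4.15, 3.29 and 3.62 CPM in experiment 2, with no overlap (edgeR, adjusted p = 0.0133). IL1A, the alarmin interleukin-1 alpha, was at 6.92, 6.32 and 12.3 CPM and then at 5.42, 3.56 and 10.2 CPM (edgeR, adjusted p = 0.0242). TRAF1, an adaptor of TNF receptors, was at 5.38, 5.35 and 4.89 CPM and then at 4.09, 3.74 and 3.93 CPM (edgeR, adjusted p = 0.022). NFKBIA, the inhibitor IkB-alpha, did not pass: it was at 53.1, 50.1 and 56.1 CPM and then at 47.2, 45.8 and 48.3 CPM (log2 fold change -0.17 ± 0.041, edgeR adjusted p = 0.0773). IL6 was near the minimum, at 0.569, 0.501 and 0.579 CPM and then at 0.409, 0.321 and 0.570 CPM (edgeR, adjusted p = 0.464). IL1B, interleukin-1 beta, was as low, at 0.526, 0.350 and 0.610 CPM and then at 0.282, 0.112 and 0.359 CPM (edgeR, adjusted p = 0.0619).

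Metalloprotease genes moved both ways. Of 24 tested metalloproteases and inhibitors, 2 rose and 1 fell at the adjusted p alone, against 0.128% and 0.413% of all genes, and the median was -0.0053. The list does not hold MMP7, which was called higher. MMP3, the protease stromelysin-1, was at 115, 121 and 124 CPM and then at 161, 142 and 177 CPM, with no overlap (log2 fold change 0.41 ± 0.049, edgeR adjusted p = 0.00112). MMP1, an interstitial collagenase, was at 5.15, 4.51 and 4.17 CPM and then at 7.02, 5.48 and 6.08 CPM (log2 fold change 0.43 ± 0.074, edgeR adjusted p = 0.0149). MMP9, a gelatinase, was at 34.9, 27.7 and 26.4 CPM and then at 21.9, 22.7 and 24.8 CPM (log2 fold change -0.35 ± 0.076, edgeR adjusted p = 0.0494). MMP13, a collagenase, was at 1.65, 1.49 and 1.89 CPM and then at 1.74, 2.51 and 3.27 CPM, and was not called (edgeR, adjusted p = 0.0619).

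Of 11 tested genes of the bone lineage, 1 rose and 1 fell at the adjusted p alone, against 0.128% and 0.413% of all genes. The list median was 0.037. SPP1, which encodes osteopontin, was at 9.07, 8.01 and 7.77 CPM and then at 11.2, 10.2 and 11.7 CPM (log2 fold change 0.41 ± 0.065, edgeR adjusted p = 0.00901). ALPL, the alkaline phosphatase of bone, was at 15.6, 15 and 14.6 CPM and then at 12, 10.6 and 11.1 CPM (log2 fold change -0.42 ± 0.054, edgeR adjusted p = 0.00156). No libraries overlapped in either gene, and the directions were opposite. Of 6 tested mesenchymal markers, 0 passed the adjusted p. At an unadjusted p under 0.05 in edgeR, 1 was higher and 0 lower, against 5.72% and 7.63% of all genes. Where antisense genes overlap it, VIM, the intermediate filament vimentin, had a log2 fold change of 0.03 ± 0.045.

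The called higher genes were few and mostly low in level. A2M, a broad protease inhibitor of plasma, was at 9.41, 9.08 and 9.24 CPM and then at 13.1, 13.2 and 13.6 CPM (log2 fold change 0.52 ± 0.056, edgeR adjusted p = 0.000596). MMP7, the protease matrilysin, was at 1.13, 1.15 and 0.863 CPM and then at 1.47, 1.86 and 1.55 CPM (log2 fold change 0.63 ± 0.13, edgeR adjusted p = 0.0320). BPIFB4 was at 2.42, 2.82 and 1.59 CPM and then at 3.54, 4.28 and 2.37 CPM (log2 fold change 0.58 ± 0.088, edgeR adjusted p = 0.00686). IL13RA2, a decoy receptor of interleukin-13, was at 1.24, 1.56 and 1.88 CPM and then at 2.03, 2 and 2.81 CPM (log2 fold change 0.55 ± 0.11, edgeR adjusted p = 0.0277). SLITRK6, a neuronal membrane protein, was at 2.72, 2.37 and 1.66 CPM and then at 2.99, 4.14 and 2.73 CPM, with a log2 ratio of 0.13 in the NTC pair and 0.81 in the crXCR1 pair (edgeR, adjusted p = 0.0449). PKHD1, a cilium gene, was at 1.505, 1.515 and 1.105 CPM and then at 1.75, 2.30 and 1.91 CPM, and was not called (edgeR, adjusted p = 0.0658).

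For the AP-1 site TGANTCA (N is any base), searched on both strands, 7.76% of all promoters and 5.32% of those of tested genes held a match, with 2 of 5 called higher genes in the table and 2 of 5 called lower ones. The called lower genes with a match were CXCL8 and LCN2. Of the 27 genes higher at the adjusted p alone, 18 have a promoter in the table and 4 hold a match, as do 4 of 56 lower ones. MMP1 and MMP3 are not among those with a match. Whether the table holds their promoters was not checked, so this does not show that they lack the element. The stretches in the called higher genes are shown because metalloprotease genes are known for this element, though only MMP7 of the called higher genes with a match is one.

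MMP7, chr11:102530788-102530834, minus strand: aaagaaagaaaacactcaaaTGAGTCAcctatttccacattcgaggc
SLITRK6, chr13:85799413-85799459, minus strand: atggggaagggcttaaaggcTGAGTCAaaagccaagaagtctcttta

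**Figure D3:**
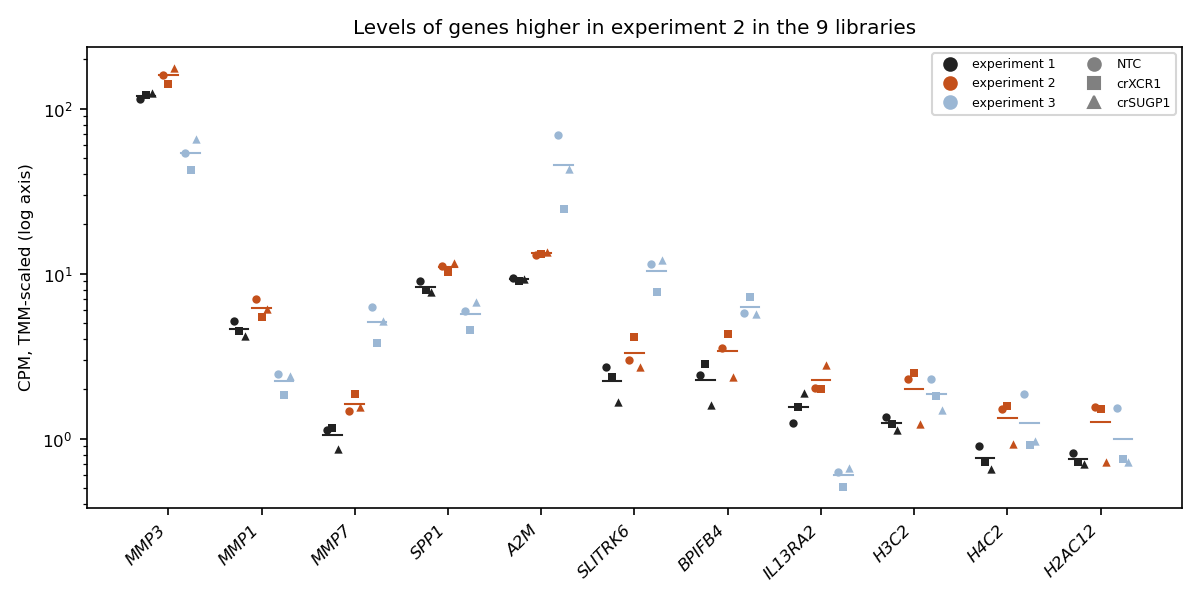
CPM on a log axis for 11 genes of the higher groups in the 9 libraries, with colour for the experiment, shape for the guide and a line at the mean of 3 libraries. Mean A2M rises from 9.24 to 13.3 CPM and is 45.6 in experiment 3, while mean MMP3 rises from 120 to 160 CPM and is 53.7 in experiment 3.

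Experiment 3, which was not part of these fits, had means beyond experiment 2 in some of these genes and back past experiment 1 in others. A2M went from 9.24 to 13.3 and then 45.6 CPM, MMP7 from 1.05 to 1.62 and then 5.08 CPM, and SLITRK6 from 2.25 to 3.29 and then 10.5 CPM. IL13RA2 went from 1.56 to 2.28 and then 0.602 CPM, and MMP3 from 120 to 160 and then 53.7 CPM. KRT6B went from 4.42 to 2.97 and then 6.29 CPM, and SAA1 from 16.2 to 11.5 and then 7.24 CPM. These are levels side by side and not a trend over the experiments, which have no order here beyond their number.

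Of 36 tested replication-dependent histone genes of 52 listed, 2 passed the adjusted p, both higher and both called (H3C2 and H4C2), where 0.128% of all genes passed higher. In all 3 pairs 12 (33.3%) were higher and 5 (13.9%) lower, against 17.7% and 17.9% of all genes. The median log2 fold change was 0.136, with 30 fitted above 0, and it was 0.158 in the NTC pair, 0.331 in the crXCR1 pair and -0.016 in the crSUGP1 pair. The list members with the highest level did not differ. H1-2 had means of 226 and 228 CPM (log2 fold change 0.0096 ± 0.040, edgeR adjusted p = 0.946), and H2AC6 of 104 and 105 CPM (log2 fold change 0.0122 ± 0.040, edgeR adjusted p = 0.93). The called members were near 1 CPM. H3C2, a histone H3 gene, was at 1.36, 1.22 and 1.13 CPM and then at 2.30, 2.51 and 1.23 CPM (log2 fold change 0.67 ± 0.14, edgeR adjusted p = 0.0439). H4C2, a histone H4 gene, was at 0.905, 0.723 and 0.652 CPM and then at 1.52, 1.58 and 0.929 CPM (log2 fold change 0.81 ± 0.14, edgeR adjusted p = 0.0168). H2AC12, not called, was at 0.821, 0.723 and 0.705 CPM and then at 1.55, 1.52 and 0.719 CPM (edgeR, adjusted p = 0.0773).

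The ends of these transcripts are shown since the histone stem-loop, in capitals, marks RNAs that polyA selection should leave behind. They are from GENCODE 44 transcripts, at position 441 of H2AC12, 488 of H3C2 and 368 of H4C2.

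H2AC12: aacaaaGGCTCTTTTCAGAGCCa
H3C2: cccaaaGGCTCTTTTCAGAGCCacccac
H4C2: tccaatGGCCCTTTTCAGGGCCgccca

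All replication histones together took 0.0552% ± 0.00145 of counts in experiment 1 and 0.0571% ± 0.00152 in experiment 2 (SD, n = 3 each; exact two-sided permutation test, p = 0.2). Family members are near-identical in sequence, and how reads were shared among them is uncertain. Other RNAs without a polyA tail, 3 of 13 listed being tested, had median log2 ratios of -0.048 in the NTC pair, 0.839 in the crXCR1 pair and -0.392 in the crSUGP1 pair, so the crXCR1 pair was the highest and the crSUGP1 pair the lowest, as for the histones. RMRP, the RNA of RNase MRP, was at 8.72, 4.95 and 6.23 CPM and then at 8.46, 10.2 and 5.65 CPM (edgeR, adjusted p = 0.436). SCARNA2, a guide RNA of Cajal bodies, was at 3.81, 3.52 and 4.68 CPM and then at 4.104, 6.293 and 3.569 CPM (edgeR, adjusted p = 0.620). Small noncoding RNAs together took 0.0013% ± 0.000267 and then 0.00145% ± 0.000402 of counts (SD, n = 3 each; exact two-sided permutation test, p = 0.6). Their part in the histone values was not tested.

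NRF2 targets, which handle oxidants and iron, had 17 of 18 members fitted above 0 with a median of 0.107. In edgeR 0 passed the adjusted p, with 8 higher and 0 lower at an unadjusted p under 0.05, against 5.72% and 7.63% of all genes. FTL, the ferritin light chain, had means of 887 and 1015 CPM (edgeR, adjusted p = 0.0520) and FTH1 of 1150 and 1330 CPM (edgeR, adjusted p = 0.0597). BEST1, which overlaps FTH1 on the other strand and is not on the list, did pass. Its log2 fold change was 0.23 ± 0.042 (edgeR, adjusted p = 0.0193), and how reads were shared between BEST1 and FTH1 is uncertain. Mitotic genes had 26 of 30 above 0 with a median of 0.065 and 0 passing in edgeR. At an unadjusted p under 0.05 in edgeR, 10 were higher and 0 lower, against the same shares of all genes. Genes of S phase had a median of -0.0057 and 0 passing in edgeR, with 0 higher and 2 lower at that unadjusted p.

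Mitochondrially encoded mRNAs had 12 of 13 fitted below 0, with a median of -0.125, and 0 passed in edgeR. Their pairs disagreed, with medians of -0.345 in NTC, 0.146 in crXCR1 and -0.091 in crSUGP1. The hosts of small nucleolar RNAs had 16 of 18 below 0 with a median of -0.0598, and the unfolded protein response 14 of 17 with a median of -0.0598. In edgeR 0 members of either passed, with 7 and 5 lower at an unadjusted p under 0.05, where 7.63% of all genes were lower. Of 24 tested glycolysis and hypoxia genes, 2 fell at the adjusted p alone, against 0.413% of all genes: HK2, a hexokinase, with means of 77.2 and 64.1 CPM (edgeR, adjusted p = 0.0171), and SLC2A1, the glucose transporter GLUT1, with means of 167 and 139 CPM (edgeR, adjusted p = 0.00532). SREBF1, a regulator of fatty acid synthesis, fell from 203 to 171 CPM as means (edgeR, adjusted p = 0.0153).

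A broad gradient with base composition accompanied these differences. With genes in 4 equal groups by the GC content of their longest transcript, the median log2 fold change was 0.046 in the lowest group, then 0.026 and -0.011, and -0.055 in the highest. It ran from 0.089 to -0.111 in the NTC pair, from 0.020 to -0.031 in the crXCR1 pair and from 0.032 to -0.028 in the crSUGP1 pair. The median GC content was 56.5% for genes lower at the adjusted p alone, 44% for the higher ones and 48.6% for all at 1 CPM. With the GC trend removed in each library, 23 genes were called and 17 of the 19 were among them. CXCL8, LCN2 and A2M stayed called.

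**Figure D4:**
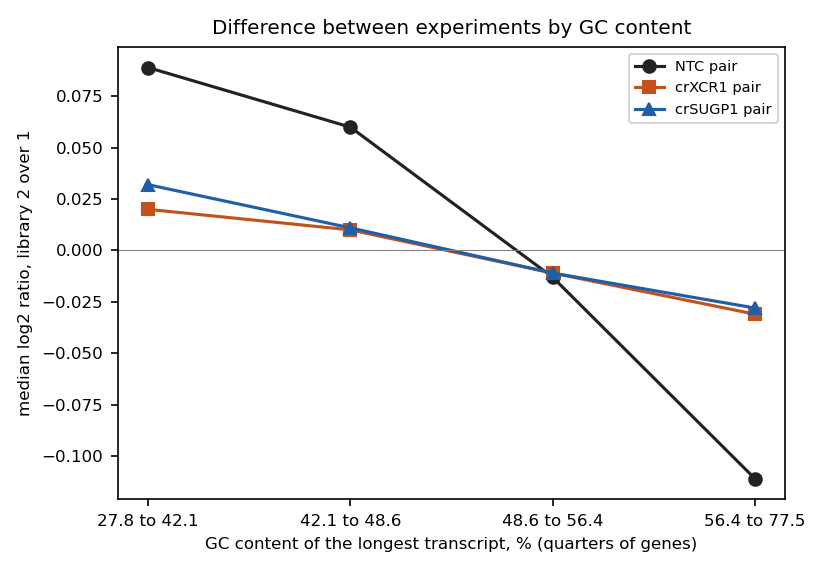
Median log2 ratio of experiment 2 over 1 on the y axis for 4 equal groups of genes by the GC content of the longest transcript, with a line for each guide pair. The NTC pair has the steepest line, from 0.089 in the lowest group to -0.111 in the highest.

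Of the genes of the dynein pathway that the study follows, 0 of 26 tested passed the adjusted p in edgeR. At an unadjusted p under 0.05, 1 was higher and 1 lower, against 5.72% and 7.63% of all genes. DYNC1I2, an intermediate chain of the motor, stood in experiments 1 and 2 at 91.5 and 103 CPM with NTC, 90.2 and 92.8 CPM with crXCR1, and 55.6 and 54.7 CPM with crSUGP1. The log2 ratio of crSUGP1 over NTC was -0.723 in experiment 1 and -0.915 in experiment 2 for DYNC1I2, and -1.944 and -2.001 for SUGP1. With 1 library per guide and experiment, the difference between the experiments could not be tested.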

How the data were processed

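The authors deposited raw counts, whole numbers of read pairs falling on a gene's exons, unnormalized. The authors aligned trimmed reads of polyA libraries to GRCh38 with STAR 2.7.9a and counted them in SeqMonk. The strand used for counting is not given in the sources used here, so overlapping genes on opposite strands may share reads. Per the submitters' notes, R 4.1.0 and DESeq2 1.32.0 were used after quality control in FastQC 0.11.5 and trimming by cutadapt 2.4 within Trim Galore 0.6.7.

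From the deposited counts, 32 entries that repeat a name were dropped, 30 with 0 counts and 2 identical, among 51 repeated names. A gene was kept if any of the 9 libraries exceeded -2 in log2 CPM, which left 21071. edgeR 4.0.16 in R 4.3.3 was used with TMM scaling and library sizes over all counts, with guide and experiment as terms. DESeq2 1.42.0 was an alternative test. limma 3.58.1 was loaded. Scripts were tested on simulated data. Experiment 3 served in separate fits and as levels only. Libraries of one guide in experiments 1 and 2 differed by more than sampling noise. Same-numbered libraries share an experiment in the study's methods, and the pairs compared here are libraries of the same guide. Gene lists, the named genes and the pair choice were made with earlier results of these data known. By rule, the 10 called genes with the largest log2 fold change in each direction at 1 CPM or more were picked, the higher direction filled with uncalled genes, then members of lists by call and level, SUGP1, XCR1 and DYNC1I2. Many list members picked by this rule, such as NFKB2, TOP2A and FASN, are not given in the text. C3, CXCL3, IL1A, TRAF1, TNFAIP3, NFKBIA, IL6, IL1B, MMP1, MMP3, MMP9, SPP1, ALPL, HK2, SLC2A1, SREBF1, PTPRC, CTSS, H1-1, BEST1 and AC008760.2 are outside it and were chosen after their values were seen. Promoters come from RefSeq for GRCh38.p14 and transcripts from GENCODE 44, which matched 99.7% of tested genes. Each library came from its own flask. The p-values rest on the spread of the difference over the 3 guide pairs, moderated across genes, and not on replicate flasks of 1 guide within an experiment.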

Additional observations from a re-analysis of the deposited data

Results flagged for a closer look

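H1-1, a linker histone gene, had a log2 ratio of experiment 2 over 1 of 1.44 in the NTC pair and 1.30 in the crXCR1 pair, and of -0.53 in the crSUGP1 pair, with each pair being 1 library against 1. It was at 0.726, 0.804 and 0.937 CPM in the NTC, crXCR1 and crSUGP1 libraries of experiment 1 and at 2.02, 2.01 and 0.644 CPM in those of experiment 2. The guide pairs moved in opposite directions, and the difference between them was not tested, since the design holds 1 pair per guide.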

How the results depend on the processing

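Libraries of one experiment carry different guides, so the spread left after fitting guide and experiment rests on 2 residual degrees of freedom. The 19 genes called between experiments 2 and 1 kept their direction in every alternative fit run. Their number was 20 with DESeq2 size factors, 16 with library totals alone, 16 with a filter at a log2 CPM above 0, 38 (17 higher, 21 lower) with no filter, 8 (1 and 7) with DESeq2, 7 (0 and 7) with all 9 libraries, where 1806 genes had an unadjusted p under 0.05, 114 (27 and 87) at the adjusted p alone and 0 in either direction at a minimum log2 fold change of 1. With no replicate block, so experiment as the sole term, edgeR called 0 in both directions. Leaving out 1 guide pair gave 28 to 63 calls, of which 11 to 39 higher and 16 to 52 lower, with 55 without the NTC pair, 63 without the crXCR1 pair and 28 without the crSUGP1 pair. Of the 19, KRT6B (-0.405), AC008760.2 and IL13RA2 were not called without the NTC pair, SAA1 (-0.434), CSF2 (-0.477), SAA2-SAA4, SLITRK6 and H3C2 without the crXCR1 pair, and CXCL5, MMP7, IL13RA2 and SLITRK6 without the crSUGP1 pair. At the adjusted p alone, 27 genes were higher and 87 lower, against 79 and 210 with no filter, 17 higher with DESeq2, 0 and 14 with all 9 libraries, 0 and 0 with no replicate block, and 37 to 229 higher and 127 to 358 lower on leaving out a guide pair. In place of 7 NF-kB targets lower at the adjusted p alone, DESeq2 gave 3, all 9 libraries 2 and no replicate block 0, while leaving out a pair gave 6 to 10. Between crXCR1 and NTC, 2 genes were called, against 1 with DESeq2 and 1 with no replicate block. Between crSUGP1 and NTC 539 became 229 with DESeq2, and between crSUGP1 and crXCR1 626 became 268. Counts thinned to the smallest library (15 called) and a removed GC trend (23 called, with 41 higher at the adjusted p alone) were chosen after seeing the data. Leaving out a pair gave medians of -0.245 to 0.0274 for the mitochondrially encoded mRNAs, above 0 without the NTC pair, and of 0.0767 to 0.274 for the replication-dependent histones. The cause of these changes was not tested. Depth limits low genes most: MMP7, near 1 CPM, had 82 to 133 counts per library.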

Other observations

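3 further genes that passed the adjusted p were chosen after their values were seen, 2 higher and 1 lower. HAS2, the hyaluronan synthase, was at 17.8, 15.5 and 22.3 CPM in the NTC, crXCR1 and crSUGP1 libraries of experiment 1 and at 20.05, 20.01 and 25.85 CPM in those of experiment 2 (log2 fold change 0.25 ± 0.052, edgeR adjusted p = 0.0415). ITGA2, the alpha-2 collagen-binding integrin, was at 65.2, 58.3 and 66.3 CPM and then at 72.0, 67.7 and 83.8 CPM (log2 fold change 0.23 ± 0.044, edgeR adjusted p = 0.0245). SDC4, the heparan sulfate proteoglycan syndecan-4, was at 453, 401 and 477 CPM and then at 376, 303 and 381 CPM (log2 fold change -0.33 ± 0.041, edgeR adjusted p = 0.00112). The libraries of ITGA2 and SDC4 did not overlap between the experiments, while those of HAS2 did. MYC, the growth regulator, was not called: it was at 174, 170 and 172 CPM and then at 155, 139 and 164 CPM (log2 fold change -0.17 ± 0.044, edgeR adjusted p = 0.0952), and 101, 89.99 and 86.1 CPM in experiment 3.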
